A study of Mus musculus with 2 samples.

Results

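The genes of olfactory signal transduction encode the proteins with which a mature olfactory neuron turns an odorant into an electrical signal. The 10 genes described here are Gnal, Gng13, Adcy3, Cnga2, Cnga4, Cngb1, Ano2, Omp, Rtp1 and Rtp2. They form a list chosen by their function, all 10 were found as single protein-coding genes in the annotation (GENCODE M21, GRCm38), and they are 10 of the 21755 protein-coding genes on the chromosomes that carry boundaries. Their place in the folded chromosome was described in cells of an earlier stage, the immediate neuronal precursors, from a deposited list of domain boundaries. A boundary is a position where contacts between the sequence on its left and on its right are depleted, and a domain is the stretch between neighbouring boundaries.

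In the mature neuron, an odorant bound to its receptor activates a G protein, which switches on an adenylyl cyclase, and the cyclic AMP that is made opens a cation channel in the cilia. Calcium entering through it opens a chloride channel that enlarges the current. Receptor transport proteins bring many odorant receptors to the cell surface. These genes are known for their activity in mature neurons rather than in precursors, and expression was not measured here.

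The donors were mouse pups, strain FVB/NTac and both sexes together, whose precursors were marked by GFP under Ngn1. Cells of the olfactory epithelium were isolated by flow sorting, and no treatment was given. The sort is described in the labels under immature olfactory neurons and the samples under immediate neuronal precursors, and which of these stages the sorted cells held was not measured here. Contacts were measured by in situ Hi-C, in which chromatin is fixed (here with 1% formaldehyde), cut (here with DpnII) and ligated so that neighbouring fragments are joined. The 2 biological replicates had 2200000 and 2100000 cells. The replicates form a single group and were combined before boundaries were called. No value below therefore has a replicate error, no comparison between conditions or test was possible, and the depth behind each boundary is unknown. The list holds 7841 boundaries of 5 kb on 20 chromosomes, 4137 strong and 3704 weak, each with a score from the authors that is higher for stronger insulation. The score served here only to describe and rank boundaries within this list.

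In the precursors, no transduction gene was crossed by the centre of a boundary, and no domain held more than 1 of the 10. The latter was largely set by gene location. Only Cnga4 and Omp, on chromosome 7, and Rtp1 and Rtp2, on chromosome 16, lie on a common chromosome. The end of Cngb1 reached into a boundary interval. The domains ranged from 95 kb around Cngb1 to 580 kb around Cnga4, with a median of 322.5 kb, and 6 of 10 were longer than the median over all protein-coding genes of 275 kb. The member genes shared their domains with a median of 3 other protein-coding genes (range 1 to 23), against 5 for all protein-coding genes. The boundary nearest to each start had a median score of 0.807 (range 0.357 to 2.43), against 0.650 for all genes. With strong boundaries alone the order of both was turned, with median domains of 420 and 480 kb and median scores of 0.875 and 0.884 for members and all genes. Of the 20 boundaries around the 10 genes 13 were strong, 65%, beside 52.8% of the whole list. The whole list is an unlike reference, since it counts each boundary once, whether or not a gene lies near. Counted by gene, 4 of 10 members had strong boundaries on both sides, beside 38.1% of all protein-coding genes. On at least 1 side 9 of 10 had one, beside 87%, so the members were near the background. These are descriptions of single loci, and whether the list differs from other genes was not tested.

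**Figure D1:**
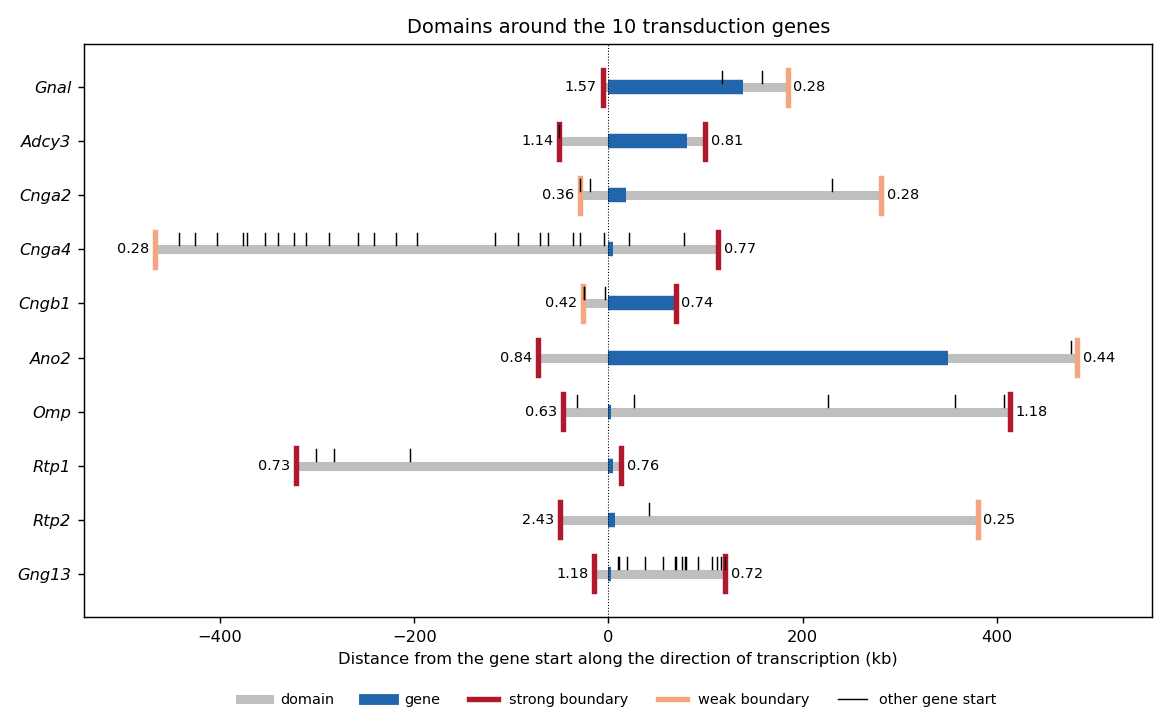
Domains of the 10 genes, each drawn in the direction of transcription with the gene start at 0 (kb on the x axis). Grey bars are domains, blue bars the genes, red and orange ticks strong and weak boundaries with the authors' score, and black ticks the starts of other protein-coding genes. In 8 of 10 rows the boundary behind the start is nearer than the one ahead, and Gnal, Cngb1, Ano2 and Adcy3 fill more than 50% of their domains.

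Both G protein genes had a strong boundary close behind their start. Gnal encodes the alpha subunit that couples odorant receptors to the cyclase. It lies on chromosome 18 (67088216 to 67226792, plus strand), and its start was 3.22 kb from a strong boundary (67080001 to 67085000) with a score of 1.57, which ranked 372 of 7841. Only 10.1% of protein-coding genes started closer to a boundary. The boundary was intergenic, meaning outside protein-coding genes. On the other side the domain ended 182 kb from the start at a weak intergenic boundary (67270001 to 67275000, score 0.280). The gene covered 72.9% of this 190 kb domain. Gnal has 8 annotated transcript starts spread over 45.5 kb, all in this domain, and 4 of them were within 10 kb of a boundary. Of other protein-coding genes only Chmp1b, which encodes a protein of the membrane-remodelling ESCRT machinery, and Mppe1 started in the domain, with starts 117 and 158 kb from that of Gnal. The start of Chmp1b lies within the span of the Gnal model.

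Gng13 encodes a gamma subunit that partners the olfactory alpha subunit. It is a gene of 2.24 kb on chromosome 17 (25717171 to 25719406, plus strand) in a domain of 135 kb that also held the starts of 15 other protein-coding genes. Its start was 12.2 kb from an intergenic boundary (25700001 to 25705000, score 1.18). The domain's far end, 118 kb away, was a strong boundary over exons of Rhbdl1 and Rhot2 (25835001 to 25840000, score 0.722). Chtf18, a gene of sister chromatid cohesion, and Rpusd1 started 10.2 and 10.5 kb from Gng13, followed by Mslnl (18.9 kb), the mesothelin gene Msln (37.2 kb) and Narfl (56.6 kb). With 28 protein-coding starts within 250 kb, Gng13 had the most crowded surroundings of the 10, against a median of 8 for all genes and 5 for the members.

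Adcy3, the adenylyl cyclase of the cilia, was enclosed by strong boundaries on both sides, and both held the start of a neighbouring gene. It lies on chromosome 12 (4133103 to 4213525, plus strand). The boundary 48.1 kb upstream (4080001 to 4085000, score 1.14) overlapped an exon of Dnajc27 and its start. The boundary 96.9 kb downstream (4230001 to 4235000, score 0.814) overlapped an exon of Cenpo, a centromere protein gene, and 2 gene starts. Adcy3 covered 53.6% of the 150 kb between them, its end lay 16.5 kb from the downstream boundary, and Dnajc27 was the only other protein-coding gene starting in the domain. Only 9.13% of all genes lay in a shorter domain. All 8 annotated starts of Adcy3, spread over 70.2 kb, lay in this domain.

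The 3 genes of the cation channel each had a weak boundary on at least 1 side, as did Gnal, Ano2 and Rtp2. This is common, since strong boundaries on both sides enclosed only 38.1% of all protein-coding genes. Cnga2 encodes the principal subunit of the cyclic nucleotide-gated channel. It was the only member with no strong boundary on either side. It lies on chromosome X (71991849 to 72010218, plus strand) in a domain of 310 kb. The upstream boundary (71960001 to 71965000, score 0.357) was 26.8 kb from the Cnga2 start and overlapped an exon of Prrg3 and the Prrg3 start. The downstream boundary (72270001 to 72275000, score 0.279), 278 kb away, overlapped an exon of Gabre, a GABA receptor gene, and the Gabre start. As for Adcy3, both boundaries held the start of a neighbouring gene. Fate1, Prrg3 and Magea4 started in the same domain, 18.9, 29.2 and 230 kb from Cnga2. Chromosome X had a lower strong share than the list as a whole, 32.9% of 431 boundaries against 52.8%. Its protein-coding genes had a median domain of 365 kb and a median score of 0.479 at the nearest boundary. Cnga2 was thus below the median of its own chromosome in both domain length and score. With strong boundaries alone its domain would measure 1280 kb.

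Cnga4 encodes a modulatory subunit of the same channel and was the only member in a domain with olfactory receptor genes. The gene (chromosome 7, 105404568 to 105408742, plus strand) shared its 580 kb domain with 19 protein-coding receptor genes and 4 other genes, so 1 of 10 members had receptor genes in its domain, beside 6.61% of all protein-coding genes. All 19 receptor genes lay upstream of Cnga4, the nearest start (Olfr692) at 36.3 kb and the farthest at 442 kb. They are the last of the large receptor cluster of this chromosome: no receptor gene started within 1 Mb beyond the domain's downstream boundary, and 7 started in the domain before it. The boundary facing the rest of the cluster, 465 kb upstream of Cnga4, was weak and overlapped an exon of Olfr669 (104935001 to 104940000, score 0.283). The one on the side without receptors was strong and intergenic (105515001 to 105520000, score 0.770), 110 kb from the Cnga4 start. No boundary of the list lay between Cnga4 and Olfr692. Fam160a2 (4.51 kb), the cholecystokinin receptor gene Cckbr (21.2 kb) and Gm5901 (29.5 kb) started closest to Cnga4, and Olfr691 followed at 62.3 kb.

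Cngb1 encodes the beta subunit shared with the photoreceptor channel and lay in the shortest domain of the 10. The domain measured 95 kb, and only 0.632% of protein-coding genes lay in a shorter one. The gene (chromosome 8, 95239045 to 95306585, minus strand) filled 71.1% of it. Its start was 23.4 kb from a weak boundary (95330001 to 95335000, score 0.415) that held the starts of Zfp319 and Usb1, an RNA processing gene. Its far end reached into the interval of a strong boundary (95235001 to 95240000, score 0.739), which overlapped its last exon with untranslated sequence. The centre of that boundary lay outside the gene. Tepp, Zfp319 and Usb1 started in the domain, 3.98, 25.4 and 25.7 kb from Cngb1.

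Ano2, the calcium-activated chloride channel of the cilia, is the longest of the 10 genes, and no boundary lay within it. Its 350 kb (chromosome 6, 125690419 to 126040126, plus strand) took up 63.0% of a 555 kb domain. Its start was 70.4 kb from a strong boundary over an exon of Vwf, the von Willebrand factor gene (125615001 to 125620000, score 0.844). The domain ended at a weak intergenic boundary (126170001 to 126175000, score 0.436), 480 kb from the start. The neurotrophin gene Ntf3, whose start was 3.09 kb from this boundary, was the only other protein-coding gene that started in the domain.

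Among all protein-coding genes 13.9% spanned the centre of at least 1 boundary, against 0 of the 10 members. The background rises with gene length: it was 3.39% of 7693 genes under 10 kb, a class with 5 members, and 63.0% of 768 genes of 200 to 500 kb, the class of Ano2. It was 34.2% of 1491 genes of 100 to 200 kb, with Gnal, and 20.0% of 2511 genes of 50 to 100 kb, with Adcy3 and Cngb1. Counting any overlap with the boundary interval, Cngb1 was the single member touched, beside 17.7% of all genes.

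**Figure D2:**
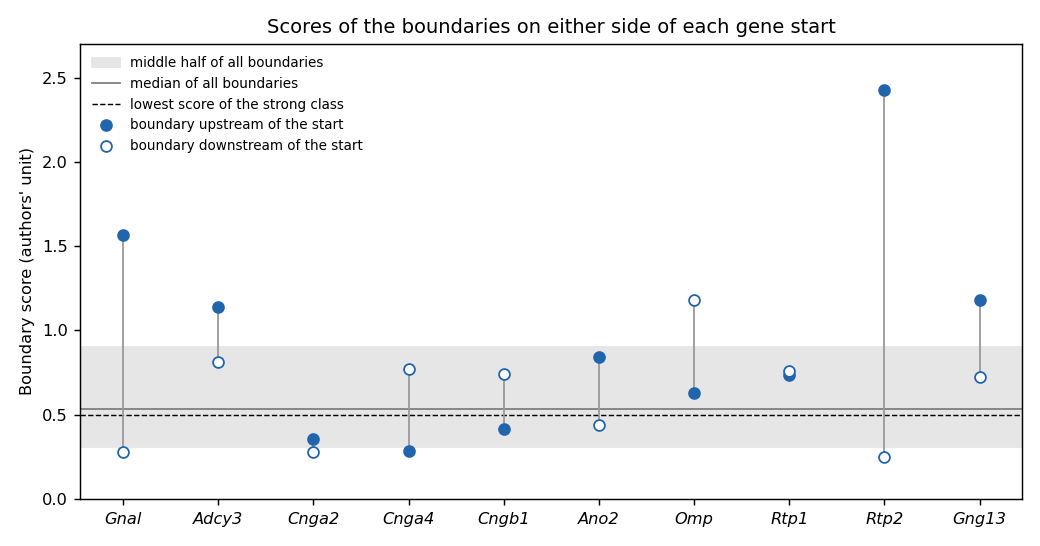
Scores of the boundaries upstream (filled) and downstream (open) of each gene start, in the authors' unit, joined by a line. The band is the middle part of all 7841 boundaries between their quartiles, the solid line their median and the dashed line the lowest score of the strong class; Rtp2 and Gnal show the widest gaps between their sides and Cnga2 has both points below the dashed line.

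Omp, whose product is the cytoplasmic marker protein of mature olfactory neurons, lay between strong boundaries in a long domain. The gene of 2.14 kb (chromosome 7, 98143359 to 98145502, minus strand) had a boundary over an exon of B3gnt6 (98190001 to 98195000, score 0.630) 44.5 kb upstream. The downstream boundary, in an intron of Aqp11 (97730001 to 97735000, score 1.18), lay 411 kb away. The 460 kb domain held the starts of 5 other protein-coding genes. Myo7a, a myosin gene of sensory hair cells, started 25.98 kb from Omp and the protease gene Capn5 32.8 kb from it. The whole Omp gene lies within the span of the Capn5 model, on the same strand. Gdpd4, the kinase gene Pak1 and the aquaporin gene Aqp11 started 226, 357 and 407 kb away.

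The receptor transport genes Rtp1 and Rtp2 lie on the same chromosome but were separated by 2 boundaries. Their starts are 503 kb apart on chromosome 16, and the 110 kb between the boundaries at 23440001 to 23445000 (strong, score 0.761) and 23550001 to 23555000 (weak, score 0.247) belonged to neither domain. The starts of Masp1, a complement protease gene, and Rtp4 fell in that stretch, and that of Sst, the somatostatin gene, in the domain of Rtp2. Rtp4 is a further member of the transporter family, and its gene model in this annotation (23520291 to 23614222) extends across the weak boundary.

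Rtp1 (23429133 to 23433960, plus strand) had strong boundaries on both sides and its end was 6.04 kb from the downstream one. Its start was 10.9 kb from that boundary, and 319 kb from the upstream one, which held the start of the translation factor gene Eif4a2 (23105001 to 23110000, score 0.733). The domain of 335 kb also held the sialyltransferase gene St6gal1, the adiponectin gene Adipoq and the replication factor gene Rfc4, 204, 283 and 301 kb from Rtp1. Rtp2 (23925548 to 23932394, minus strand) lay 47.6 kb from the strongest boundary of all 20, in an intron of Bcl6 (23980001 to 23985000), a gene for a transcriptional repressor. Its score of 2.43 ranked 31 of 7841. The domain of Rtp2 measured 430 kb, its other end was the weak boundary shared with the stretch around Masp1, and Sst, 41.4 kb away, was the only other protein-coding gene that started in it.

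**Figure D3:**
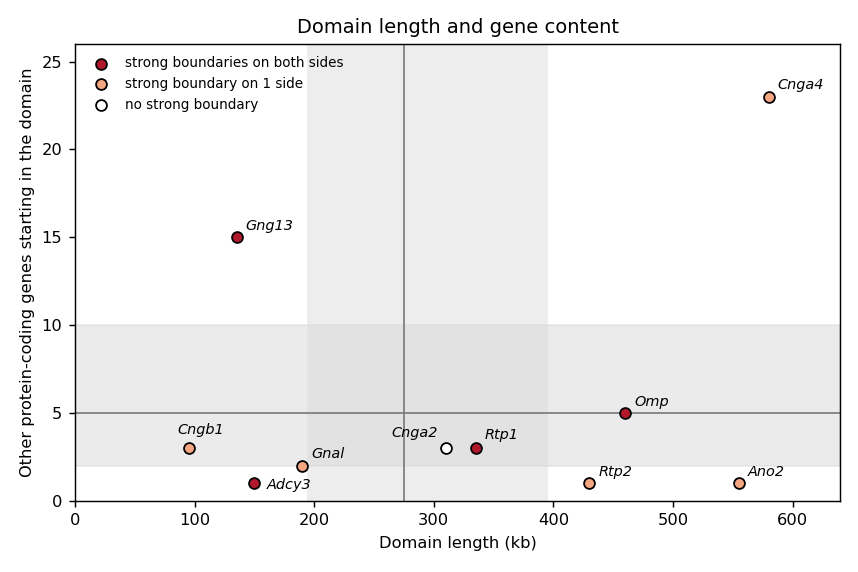
Domain length in kb (x axis) against the number of other protein-coding genes starting in the domain (y axis) for the 10 genes, coloured by how many of their boundaries are strong. Lines and bands mark the median and quartiles of all protein-coding genes; Cnga4 with 23 and Gng13 with 15 neighbours stand above the band and the other 8 have 1 to 5.

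Strong boundaries on both sides enclosed 4 of the 10 genes (Adcy3, Omp, Rtp1 and Gng13), beside 38.1% of all protein-coding genes, and 9 of 10 had a strong boundary on at least 1 side, beside 87%. Both counts are near the background. The boundary nearer to the start was the stronger one in 8 of 10 genes, beside 51.4% of all protein-coding genes, the exceptions being Omp and Cngb1. This count was made after the scores had been seen and was not tested.

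Of the 10 members 1, Gnal, started within 10 kb of a boundary, beside 16.4% of all protein-coding genes. Rtp1 and Gng13 lay just outside this window at 10.9 and 12.2 kb, then came Cngb1 (23.4 kb) and Cnga2 (26.8 kb), and Omp, Rtp2 and Adcy3 followed between 44.5 and 48.1 kb. Ano2 and Cnga4 were the farthest. The median distance was 35.7 kb, against 55.3 kb for all genes. A list of 17 genes of the precursor state, here called precursor regulators, holds regulators such as Lhx2, Ebf1, Sox11 and Insm1. It also holds the proliferation genes Mki67 and Top2a. Of these 17 genes 10 started within 10 kb, with a median distance of 6.68 kb. Of 13 genes of immature neurons 5 did so (Stmn2, Ncam1, Cd24a, Tex15 and Atf5), with a median of 28.2 kb. These lists and the other lists compared below were chosen with earlier results of these data known. The differences between these lists were not tested.

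**Figure D4:**
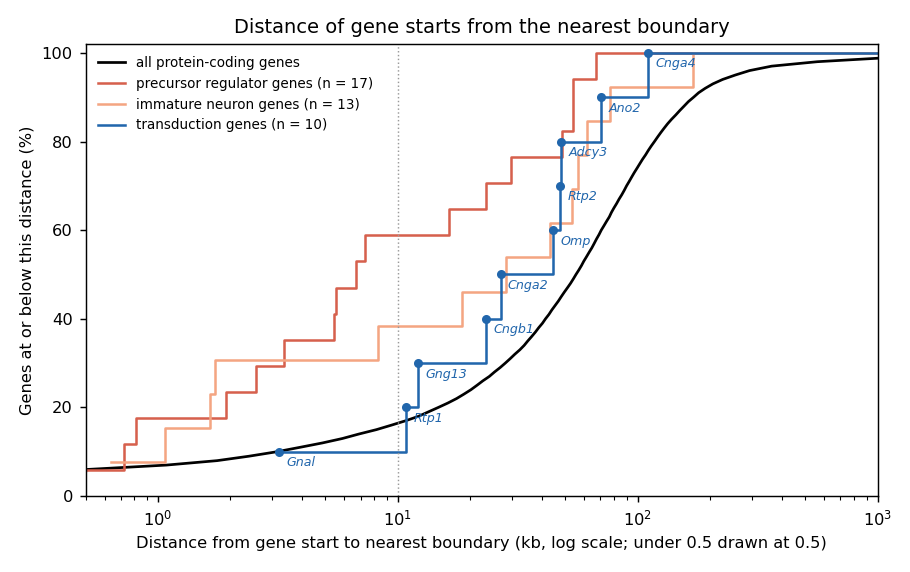
Share of genes (y axis, percent) whose start lies at or below a given distance from the nearest boundary (x axis, kb, log scale), for all protein-coding genes (black), 17 precursor regulators, 13 immature neuron genes and the 10 transduction genes (blue, each point a gene). At 10 kb, marked by the dotted line, 10 of 17 precursor regulators, 5 of 13 immature neuron genes and 1 of 10 transduction genes lie to its left. The lists were chosen with earlier results of these data known, and their differences were not tested.

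The transduction genes mostly pointed away from the boundary closest to their start. For 8 of 10 the nearer boundary lay behind the start, so that transcription ran into the domain, beside 51.7% of all protein-coding genes. Rtp1 and Cnga4 were the exceptions. Measured from the boundary behind it, the start lay 3.01% of the way along the domain for Gnal, 9.47% for Cnga2, 10.2% for Omp and 10.9% for Gng13. It was at 11.7% for Rtp2, 13.1% for Ano2, 27.3% for Cngb1 and 33.7% for Adcy3, and at 80.5% for Cnga4 and 96.0% for Rtp1. The median was 12.4%, against 48.1% for all genes (quartiles 20.3 and 76.6%). With strong boundaries alone the median was 19.3% and the count 7 of 10. This pattern was examined after the positions had been seen and was not tested. In the other lists the median was 42.8% for 16 other transduction genes, 65.3% for 35 paralogues of the members, 59.9% for the immature neuron genes and 6.71% for the precursor regulators. The nearer boundary lay behind the start in 9 of 16, 16 of 35, 5 of 13 and 13 of 17 genes of these lists.

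**Figure D5:**
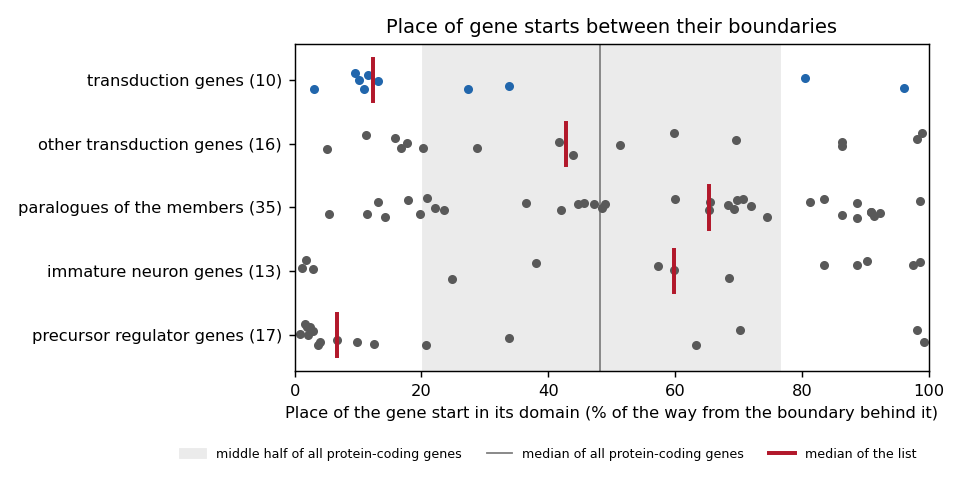
Place of each gene start in its domain, as the percentage of the way from the boundary behind it to the one ahead, for the 10 transduction genes and 4 other lists (number of genes in brackets; points are spread vertically for legibility). Red bars are list medians, and the line and band the median and quartiles of all protein-coding genes; 8 of the 10 transduction genes lie below 34%.

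Other genes that act on the same pathway were described in the same way. Of 16 such genes 2 started within 10 kb of a boundary, beside the 16.4% of all genes. Calm3, a calmodulin gene, started inside a strong boundary (score 0.534), and Slc12a2, the chloride importer that loads the neuron, 1.32 kb from a weak one (0.244). None lay in a domain with a member. Their domains had a median of 227.5 kb. Of the 16 genes 6 spanned a boundary, beside the 13.9% of all genes. Their median gene length was 55.0 kb, against 12.6 kb for the members and 17.4 kb for all genes, and the share rises with length as given above. Gnas encodes the widely expressed relative of the olfactory alpha subunit. The 5′ end of its model was 20.7 kb from its nearest boundary (score 2.42), which lay ahead of it and was spanned by the model. Ric8b, the exchange factor for the olfactory alpha subunit, lay 267 kb from its nearest boundary (score 1.38). Of 35 paralogues of the members, from the adenylyl cyclase, channel, anoctamin, Rtp and gamma subunit families and including Gnas, which is also among the 16 above, 2 started within 10 kb: Adcy2, inside a weak boundary (0.265), and Gngt2 at 7.22 kb (0.504). The paralogues' median distance was 44.1 kb, their median domain 200 kb, and 10 of 35 spanned a boundary, at a median gene length of 62.4 kb.

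Sites for CTCF, the protein that halts cohesin at many boundaries, were searched as exact matches to its 12-base core, on both strands, in each boundary interval extended by 10 kb. Of the 20 boundaries around the members 6 held a match, beside 26% of all 7841. Inside the 5 kb interval itself 4 of the 20 held a match, beside 6.9% of all boundaries. The boundaries with a match were those upstream of Rtp2, Ano2 and Gng13 and downstream of Cnga4, Cngb1 and Gnal. The sites at 5 of them are shown because they are the exact matches to the core in the windows of these boundaries. Those of Ano2 and Gng13 lie outside the 5 kb interval. The core is in capitals, and each site is written 5′ to 3′ on the strand that carries the core (RefSeq sequence of GRCm38.p6).
Rtp2 upstream, chr16:23984344-23984393, plus strand: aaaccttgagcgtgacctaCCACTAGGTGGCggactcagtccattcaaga
Ano2 upstream, chr6:125622626-125622675, plus strand: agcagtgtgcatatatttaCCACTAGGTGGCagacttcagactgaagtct
Gng13 upstream, chr17:25698608-25698657, minus strand: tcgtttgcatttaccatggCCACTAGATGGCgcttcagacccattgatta
Cnga4 downstream, chr7:105515356-105515405, minus strand: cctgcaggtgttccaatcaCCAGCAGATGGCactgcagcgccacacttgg
Cngb1 downstream, chr8:95235840-95235889, minus strand: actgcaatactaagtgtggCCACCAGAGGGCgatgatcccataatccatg

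The first lies in an intron of Bcl6 and the second in an intron of Vwf, and the others are intergenic. Rtp2, whose boundary has the highest score of the 20, and Ano2 carry the same core. The site of Ano2 points into its domain and that of Cnga4 does too, while those of Rtp2, Gng13 and Cngb1 point out of it. No member domain had matches pointing inward at both ends, which 2.62% of 7821 domains had. The strong boundaries beside Gnal, Adcy3, Omp and Rtp1 and the downstream one of Gng13 held no match, which says only that these letters are not in the window.

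Promoters were searched for the Olf/Ebf motif, since sites for this factor family were first described in genes of mature olfactory neurons. The RefSeq table (GRCm38.p6) held a promoter for 7 of the 10 genes, and Gnal, Omp and Rtp1 had no entry. The motif CCCNNGGG, which reads the same on both strands, occurred in 5 of the 7 promoters (250 bases before to 50 after the start), beside 15.8% of 16449 promoters. In 1000 bases before to 50 after the annotated gene start it occurred in 4 of the 7, without Rtp2, beside 30.6%. The homeodomain core TAATTA occurred in 0 of 7, beside 4.49%. Adcy3 and Ano2 had neither. The matches are shown with 11 bases on each side and the motif in capitals, since they are what these promoters share. Each is written in the direction of transcription, on the minus strand for Cngb1 and Rtp2. Position is counted from the RefSeq start of transcription.
Cnga2, chrX:71991772-71991801, from position -66: caagggagagtCCCTTGGGgagcttgggag
Cngb1, chr8:95306696-95306725, from position -129: acactgctggaCCCGTGGGggttgctgctt
Rtp2, chr16:23930978-23931007, from position -202: acctccgtcagCCCATGGGttggatctcac
Gng13, chr17:25717066-25717095, from position -95: tgcatgtcccaCCCCAGGGgagacctgcca
Cnga4, chr7:105404581-105404610, from position 25: cgcagctggagCCCCAGGGcagcttcttcc

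Gng13 held a second match that overlaps the one shown by 7 bases. The RefSeq start of Rtp2 lies 1600 bases from the start used for distances, so its match falls inside the Rtp2 gene model. For Adcy3 the 2 starts lie 294 bases apart. None of the 5 promoters had the longer form of the motif with a T before and an A after it, which 0.954% of promoters had. A match is a description of the sequence, and binding was not measured.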

How the data were processed

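Boundaries were called by the authors on a contact matrix combined from both replicates on GRCm38, per the series' design text; no source used here names the caller or its settings. The deposited list holds a class and a score for every 5 kb interval. From the values, weak scores end at 0.49968 and strong scores begin at 0.50002. All 7841 intervals lay within the reference chromosomes.

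Genes came from GENCODE M21. Each gene was taken to start at the 5′ end of its model. A domain ran between the midpoints of the nearest boundaries on either side of it. Distance was taken to the nearest interval edge. Neighbours were other protein-coding genes starting in the domain, all named where there were at most 8, otherwise the nearest 5. Starts inside a boundary interval, such as those of Zfp319, Usb1, Dnajc27 and Prrg3, were assigned by their side of the midpoint. That assignment is finer than the 5 kb intervals. Genes of other lists were named where they started within 10 kb of a boundary. Gnas, Ric8b and the genes between Rtp1 and Rtp2 were named after their values had been seen. Of 21755 genes, 21528 had boundaries on both sides. Python 3.11.15 and pandas 2.3.3 were used, and look-ups and motif scans were tested on simulated data. The members and lists were chosen with earlier results of these data known. Medians and counts are descriptions. Strain variants were not examined.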

Additional observations from a re-analysis of the deposited data

How the results depend on the processing

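Of 37 recomputed values over 12 results, 31 stayed within 1.5 times the reported count or within the binomial 95% interval of the reported median over the 10 genes. That interval treats the 10 loci as a sample and is wide, for example 135 to 555 kb for domain length. Staying within it is therefore no evidence that a result is stable. Of the 37, 6 were added after the positions had been seen. The number of members near a boundary followed the window: it was 0 of 10 inside the intervals, 4 within 25 kb and 8 within 50 kb, beside 5.07, 27.8 and 46.3% of all genes. Cngb1 made the count of genes touching a boundary 1 when any overlap counted. With 1 mismatch allowed, 18 of the 20 boundaries held a CTCF match, beside 89.1% of all. With the longer Olf/Ebf motif 0 promoters matched. With strong boundaries alone the median domain was 420 kb against 480 kb for all genes, so members then lay below rather than above the background. No paired analysis was possible because replicates were combined before calling, and no replicate could be left out. Depth is unknown.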
